A study of Danio rerio with 2 samples.

Results

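*evx1* and *evx2* are the genes mutated in the embryos that gave these cells. Both were found by their symbols in the gene lists of the libraries, where they are 2 of 36351 listed genes (*evx1*, LL0000009856, and *evx2*, LL0000009857). Their counts, their co-detection in single cells and the genes that moved with them were read in excitatory, inhibitory, other-fate and non-neuronal cells of 2 droplet single-cell RNA-seq libraries. The cells were EGFP-positive trunk cells sorted from zebrafish embryos at 48 h and fixed in methanol. All parents were heterozygous for *evx1*i232 and *evx2*sa140 and carried *Tg(evx1:EGFP)*SU2, so that embryos of all genotypes from this cross could enter each library. The cells carry no genotype, and a transcript from a mutant allele is counted as one from a wild-type allele. Every cell also carried the reporter, in which *evx1* regulatory sequence drives a GAL4-VP16 activator and this activator drives EGFP. EGFP can therefore persist or spread beyond the cells that transcribe *evx1*. The libraries form a single group of 2 replicates, called library 1 and library 2 here. The labels name spinal cord as the tissue and V0v interneurons as the cell type. Their titles differ in the words OtherGFP and AllGFP, which the labels do not explain.

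Evx1 and Evx2 are homeodomain transcription factors of the even-skipped family. In the vertebrate spinal cord both are found in V0v interneurons, which are glutamatergic neurons with commissural axons that arise from the p0 progenitor domain and take part in locomotor circuits. In zebrafish lacking both factors, V0v cells fail to become glutamatergic and many show inhibitory transmitter genes instead. A further member of the family in zebrafish, *eve1*, is known from the ventral embryo and the tail. *evx1* and *evx2* lie beside *hox* genes.

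The libraries held 4373 and 6223 cells with 18908819 and 34071583 unique molecular identifiers (UMIs), and 3571 and 4556 cells were kept. Neuron-like clusters held 3246 (90.9%) and 2989 (65.6%) of the kept cells. The neurons were clustered without *evx1*, *evx2* or any listed gene, and a cluster was called excitatory-like, inhibitory-like or other-fate-like from its transmitter and fate markers. The label of V0v interneurons thus did not cover all cells, since fibroblast-like cells alone numbered 70 and 723. These classes held 1887, 1203 and 987 cells over the libraries, and 2158 cells lay in clusters that carried no name and are called unnamed neurons. *hsp70l*, a heat shock gene, differed widely between the libraries, at 6137 and 45.6 CPM (UMIs of a gene scaled to a common total of UMIs) in their neurons. The labels do not say whether the libraries came from separate embryos, so the spread behind the p-values below may be technical. The main fits had library as a term. The spread is thus what remains between sums over classes or states cut from the same 2 libraries. It includes any departure from the fitted terms and is no measure of the spread between animals. A gene is said to be called where its adjusted p in edgeR's quasi-likelihood test, over all genes fitted, is under 0.05.

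Neurons held nearly all *evx1* and *evx2* transcripts. *evx1* had 1763 UMIs in library 1 neurons and 2479 in library 2 neurons, which were 98.4% and 96.5% of its UMIs in kept cells. *evx2* had 2549 and 3727 UMIs in neurons, 98.9% and 97.6% of its total. *evx2* was thus the more abundant by UMIs in both libraries, at 209 and 287 CPM over all neurons against 144 and 191 CPM for *evx1*. Few molecules were seen per cell. Of the neurons with any *evx1* UMI, 64.9% and 48.1% had 1, and the highest counts in a cell were 8 and 12. For *evx2* these values were 53.3% and 37.2%, with highest counts of 9 and 15. *eve1* had 0 UMIs in both libraries.

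Both genes were higher in neurons than in non-neuronal cells. Over all non-neuronal cells *evx1* was at 22.8 and 12.5 CPM and *evx2* at 22.0 and 13.1 CPM. With the classes weighted equally, the neuron classes exceeded the non-neuronal classes by 2.99 ± 0.22 (SE) on the log2 scale for *evx1* (adjusted p = 1.1e-12) and by 3.08 ± 0.19 for *evx2* (adjusted p = 3.2e-14). Of 12604 genes that had no part in clustering or naming, 39.1% were called higher in neurons in the same contrast. Progenitor-like cells, which expressed radial glia and cell cycle genes, stood above the other non-neuronal classes, at 51.5 and 56.6 CPM of *evx1* and 47.0 and 29.3 CPM of *evx2*. Fibroblast-like cells held 5 and 9 UMIs of *evx1* and 4 and 18 of *evx2*. Thinned to 2000 UMIs a cell, 2.90% and 0.420% of them had an *evx1* UMI and 1.45% and 0.980% an *evx2* UMI. These levels serve as a background here, and their source was not tested. In library 2, 2 of these cells had both genes and 1 had *evx1* alone. Of thinned progenitor-like cells 1.87% and 5.19% had *evx1*. All neuron classes taken whole lay above this background. Cluster 10, within the other-fate-like class, was at 9.26 and 1.22 CPM of *evx1*, beside 12.2 and 2.20 CPM in fibroblast-like cells. Its *evx2* was at 13.9 and 2.44 CPM, beside 9.77 and 4.40 CPM.

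The classes of neurons had the same order of mean CPM for both paralogues but were spaced differently. *evx1* stood close in both transmitter classes. Excitatory-like cells had 127 and 130 CPM and inhibitory-like cells 111 and 111 CPM. The difference was 0.31 ± 0.24 on the log2 scale and was not called (adjusted p = 0.60). *evx2*, in contrast, was at 235 and 284 CPM in excitatory-like cells and at 64.0 and 98.4 CPM in inhibitory-like cells. This difference of 1.79 ± 0.23 was called (adjusted p = 1.7e-06), in a contrast where 3.18% of genes were called higher in excitatory-like cells. With transmitter sums set 2 times apart instead of 3 times in the naming of clusters, the *evx2* difference was 0.99 ± 0.33 (adjusted p = 0.087), and that of *evx1* was -0.27 ± 0.30 (adjusted p = 0.76). With cells gated one by one on transmitter UMIs in place of clusters, the *evx1* difference was 0.78 and called (adjusted p = 3.9e-05).

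Other-fate-like cells were named from markers of V1, V2b, dI6, dI4, Kolmer-Agduhr or motoneurons, but were not of 1 kind. Cluster 10, with 70 and 215 of these cells, was led by *cort*, *islr2*, *barhl2* and *pou4f1*, which are not among those markers, and had more *slc17a6* (300.3 CPM) than *slc6a5* and *slc6a1b* (104 CPM). The class had 63.4 and 53.4 CPM of *evx1* and 68.5 and 80.5 CPM of *evx2*. Excitatory-like cells exceeded them by 1.25 ± 0.26 for *evx1* (adjusted p = 0.0011) and by 1.88 ± 0.24 for *evx2* (adjusted p = 1.1e-06), beside 5.66% of genes called higher. Inhibitory-like cells exceeded them by 0.94 ± 0.27 for *evx1* (adjusted p = 0.026), beside 2.11% of genes, whereas the *evx2* difference of 0.09 ± 0.25 was not called (adjusted p = 0.94). Of these 4 contrasts, the *evx2* difference between excitatory-like and other-fate-like cells was called under every alternative run except those that leave 1 library and have no test. The others depended on the setting. Without cluster 10 the *evx1* differences were 0.85 (adjusted p = 0.026) and 0.55 (adjusted p = 0.28). With DESeq2's Wald test the *evx1* differences were 1.13 (adjusted p = 0.18) and 0.88 (adjusted p = 0.44), and with *COX3* counted among the mitochondrial genes they were -0.08 and -0.54, all not called. The *evx2* difference between inhibitory-like and other-fate-like cells was called in opposite directions, at -1.21 with *COX3* counted (adjusted p = 0.00032) and at 3.27 with a clustering resolution of 0.5 (adjusted p = 3.4e-11).

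The unnamed neurons had the highest levels of all, at 195 and 397 CPM of *evx1* and 286 and 546 CPM of *evx2*. Library 2 was far above library 1 here, and the class was made of different clusters in each. Clusters 0 and 1 held 525 and 614 of the 1246 cells of library 1, and clusters 8 and 12 held 554 and 258 of the 912 cells of library 2. Within cluster 8 the libraries lay closer, at 535 and 598 CPM of *evx2*. Blood markers also differed, with the 4 genes of that list summing to 18.6 and 871 CPM in the class, and their part in the levels was not tested. The remaining order of classes was excitatory-like, inhibitory-like, other-fate-like and progenitor-like for both genes. In that order the values of the 2 libraries overlapped between other-fate-like and progenitor-like cells for *evx1* and between inhibitory-like and other-fate-like cells for *evx2*. Fibroblast-like and other non-neuronal cells also overlapped, for each gene.

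**Figure D1:**
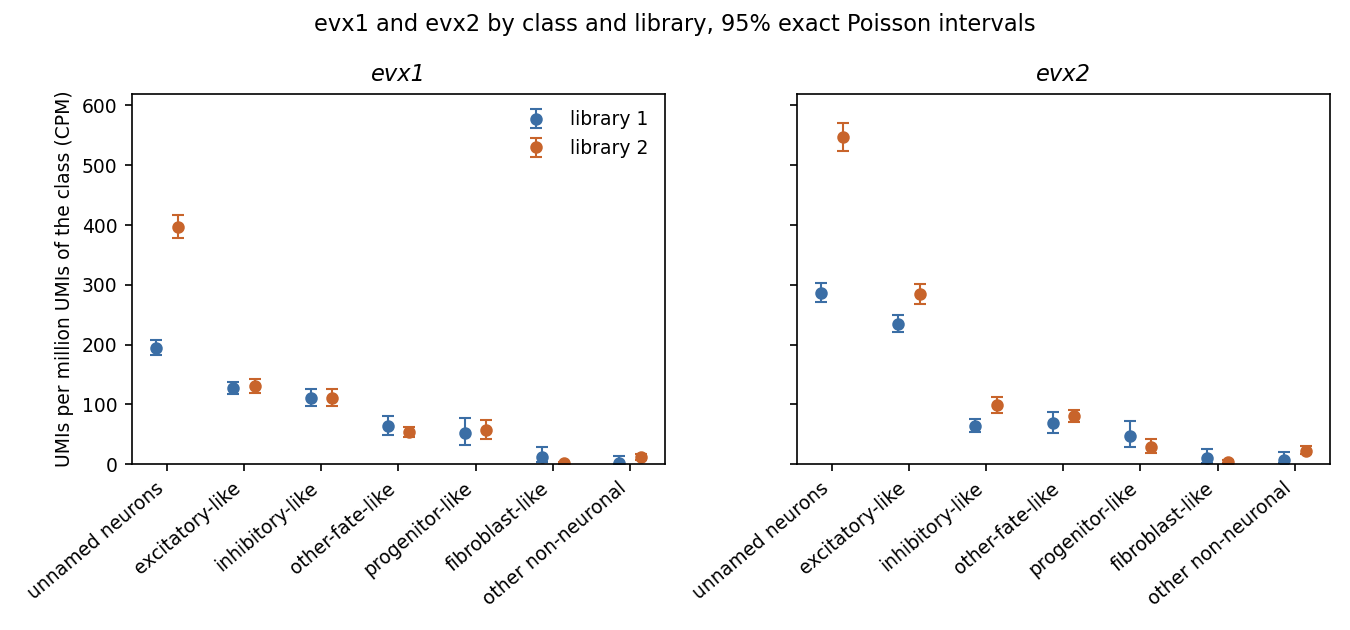
CPM of *evx1* (left) and *evx2* (right) in each class of cells, with library 1 in blue and library 2 in orange and 95% exact Poisson intervals that cover counting error only. *evx1* is near 130 CPM in excitatory-like and 111 CPM in inhibitory-like cells, while *evx2* falls from 235 and 284 CPM to 64.0 and 98.4 CPM between the same classes.

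Single clusters spread the paralogues further apart. Cluster 8, of unnamed neurons led by *bcl11ba* and *pax8*, had the most *evx2* and much *evx1*, with 535 and 598 CPM of *evx2* and 299 and 391 CPM of *evx1*. Cluster 12, also unnamed and led by the Notch target *her15.1*, had 459 CPM of *evx1* and 504 CPM of *evx2* in library 2 and held 4 cells in library 1. The 4 excitatory-like clusters lay close together, between 107 and 162 CPM of *evx1* and between 205 and 337 CPM of *evx2*.

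The 2 inhibitory-like clusters were alike in *evx1* and unlike in *evx2*. Cluster 11 was led by *pnoca*, which encodes a nociceptin precursor, by the GABA transporter gene *slc6a1b* and by *hmx2*. It had 130 and 128 CPM of *evx1*, as much as excitatory-like clusters, but 30.5 and 32.0 CPM of *evx2*. In cluster 5, led by *bhlhe22*, *evx1* was at 96.4 and 101 CPM and *evx2* at 90.9 and 137 CPM. Among other-fate-like clusters, cluster 9, with *dmrt3a* and *pax2a*, kept 105 and 103 CPM of *evx1* and 140 and 183 CPM of *evx2*. Cluster 6 had 56.1 and 35.7 CPM of *evx1* and 21.8 and 9.26 CPM of *evx2*, and cluster 10, with *cort*, *barhl2* and *isl1*, had 2 and 1 UMIs of *evx1* and 3 and 2 of *evx2*.

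**Figure D2:**
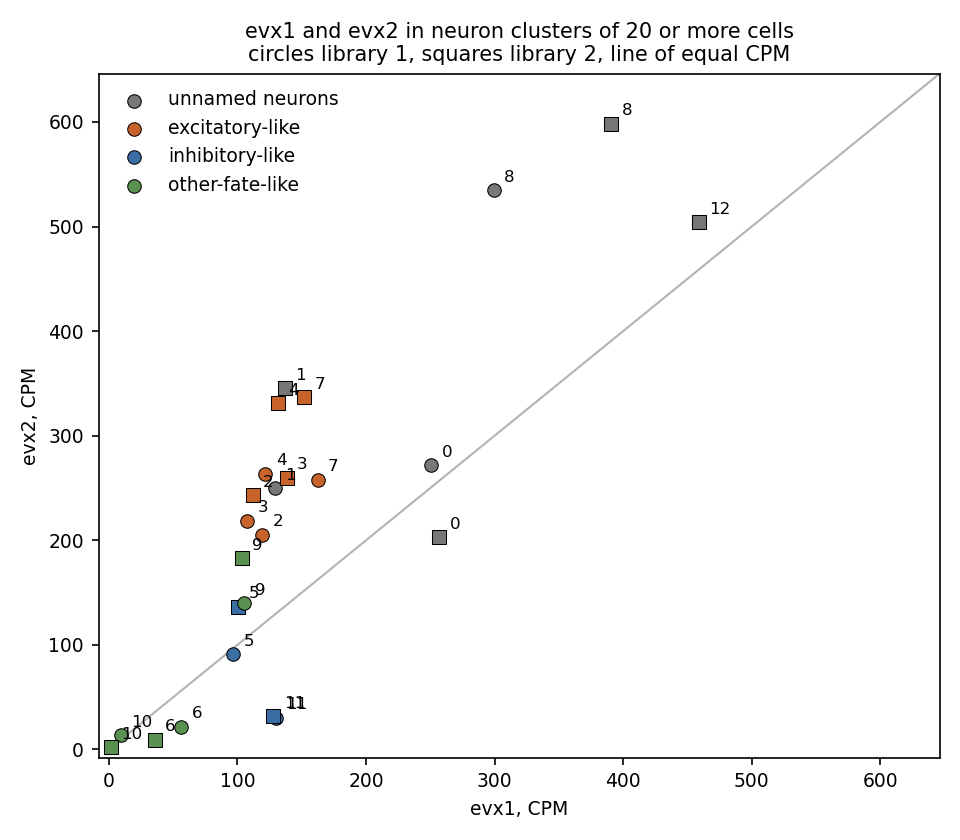
*evx1* (x axis) against *evx2* (y axis), both in CPM, in each neuron cluster with at least 20 cells in the library shown, coloured by class. Cluster 11 sits at 130 and 128 CPM of *evx1* with 30.5 and 32.0 CPM of *evx2*, far under the line of equal CPM, and the excitatory-like clusters sit above it.

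The balance of the paralogues therefore had opposite signs in the transmitter classes taken whole, but not in each inhibitory-like cluster. The log2 ratio of *evx2* to *evx1* UMIs was 0.88 and 1.13 in excitatory-like cells and -0.80 and -0.17 in inhibitory-like cells. In unnamed neurons it was 0.55 and 0.46. The lowest ratio in each library was that of cluster 11, with 31 *evx2* UMIs beside 132 *evx1* UMIs in library 1 and 26 beside 104 in library 2. This difference between classes was not tested. With transmitter sums 2 times apart, cluster 12 joined the inhibitory-like class. In library 2 it had 593 *evx2* UMIs beside 540 of *evx1*, where the class without it had 219 beside 246. The opposite sign in library 2 thus depended on the naming of clusters.

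Equal depth was set by thinning each cell to 2000 UMIs, which left 3007 and 2886 neurons and took out 239 and 103 shallower cells. After thinning, 22.9% and 25.6% of neurons had an *evx1* UMI and 29.8% and 34.8% an *evx2* UMI, against 35.0% and 40.6% and 42.7% and 49.9% before. Excitatory-like cells had *evx2* in 35.0% and 42.6% of cells and *evx1* in 22.7% and 20.1%. In inhibitory-like cells the order turned, with *evx1* in 14.8% and 17.3% and *evx2* in 9.95% and 12.5%. In cluster 5 of this class the shares lay close, with *evx1* in 13.4% and 16.9% and *evx2* in 14.2% and 15.8%. Other-fate-like cells had *evx1* in 10.5% and 7.84% and *evx2* in 9.72% and 10.5%.

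Detection placed each neuron in 1 of 4 states. In library 1, 1687 neurons had neither gene, 424 had *evx1* alone, 632 had *evx2* alone and 264 had both. In library 2 the states held 1531, 352, 615 and 388 neurons. An absent UMI does not mean an absent transcript, since most positive cells had few molecules. The states drew on different classes. Inhibitory-like cells made up 19.8% and 23.3% of the cells with *evx1* alone, 8.54% and 9.11% of those with *evx2* alone and 2.65% and 2.84% of those with both. Excitatory-like cells were 43.8% and 44.6% of the cells with *evx2* alone, and unnamed neurons were 61.7% and 73.5% of the cells with both.

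Co-detection was described by odds ratios, with no test because cells of a library are not replicates. Over all neurons the odds ratio (at 1 when detection of either gene says nothing about the other) of *evx1* and *evx2* detection was 1.66 in library 1 and 2.74 in library 2. It was 1.09 and 1.16 in excitatory-like cells, 0.722 and 0.929 in inhibitory-like cells, 1.62 and 1.65 in unnamed neurons and 5.69 and 4.98 in other-fate-like cells, where 8 and 17 cells had both. Cluster 9 held 6 and 17 of these cells, with odds ratios of 2.96 and 2.52 within it. Combined within classes it was 1.37 and 1.51, and within clusters 1.30 and 1.44. In excitatory-like cells *evx2* was found in 36.6% (95% exact binomial interval 30.4 to 43.1) of library 1 cells with *evx1* and in 34.6% of those without. In library 2 the shares were 45.5% (37.7 to 53.4) and 41.8%. The share in cells without *evx1* lay inside the interval in both libraries. The interval covers counting error of 1 share only and is no test of association.

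**Figure D3:**
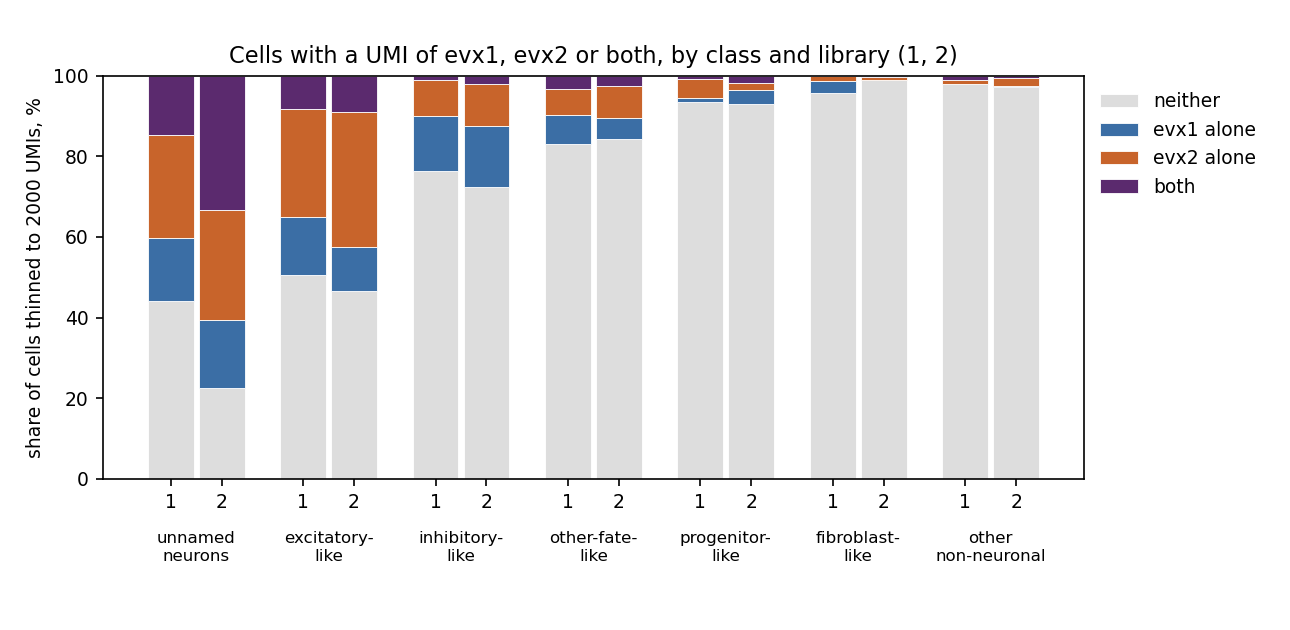
Share of cells, in percent, with neither gene, *evx1* alone, *evx2* alone or both, for each class and library after thinning to 2000 UMIs a cell. Cells with both are 14.7% and 33.4% of the unnamed neurons and 1.14% and 2.05% of inhibitory-like cells.

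Genes that moved with each paralogue were tested over all neurons in a model with *evx1* detected, *evx2* detected and library as terms, on UMIs summed over the thinned cells of each state. Of 8818 genes, 260 (2.95%) were called higher and 443 (5.02%) lower with *evx2*. With *evx1*, 147 (1.67%) were called higher and 165 (1.87%) lower. The test of the difference between these effects called 32 genes (0.363%) for which the *evx2* effect was the higher and 59 (0.669%) for which it was the lower. Both effects share the cells with neither gene, so their values are set side by side below without a measure of their agreement. The median effect over all genes was 0.0043 with *evx2* and 0.0030 with *evx1* on the log2 scale. The states held unequal shares of the classes, so effects over all neurons mix differences between and within classes. Effects within classes are given for some of the genes, and a missing value does not mean that a gene could not be tested there. The counts were also lower under DESeq2's Wald test, at 249 with *evx2* and 89 with *evx1*, and at 123 and 15 without the library as a block.

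Transmitter genes parted with *evx2*. Of the 7 tested genes of the inhibitory transmitter list, 5 were called lower with *evx2* (median log2 of the 7 -1.01) and 2 with *evx1* (median -0.56). Of the 5, *gad1b* passed edgeR's filter on low counts only through cells with neither gene, so its call is no evidence on the direction of the list. *slc6a5*, which encodes the neuronal glycine transporter, was at 243, 127, 126 and 45.5 CPM in library 1 cells with neither gene, *evx1* alone, *evx2* alone and both, and at 519, 362, 267 and 175 CPM in library 2. It was lowest in cells with both genes in each library, and fell by 1.01 ± 0.09 on the log2 scale with *evx2* (adjusted p = 3.0e-09) and by 0.73 ± 0.10 with *evx1* (adjusted p = 7.4e-06). With class as a further term these effects were -0.017 and -0.32, both not called. *slc6a1b* was at 152, 104, 19.8 and 17.0 CPM and at 149, 85.2, 28.5 and 27.1 CPM in the same order. It decreased by 2.47 ± 0.15 with *evx2* (adjusted p = 3.0e-13) and by 0.56 ± 0.14 with *evx1* (adjusted p = 0.014), and the effects differed by -1.91 ± 0.22 (adjusted p = 1.9e-06). With class as a further term this difference was called for 0 of 3 tested genes of the list (1 at an unadjusted p under 0.05). Within inhibitory-like cells it was called for *slc6a1b*.

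*slc32a1*, the vesicular transporter of GABA and glycine, dropped by 0.56 ± 0.08 with *evx2* (adjusted p = 8.5e-06), a call that was lost with class as a further term (-0.24, adjusted p = 0.35). The GABA-synthesis gene *gad1b* had 3 UMIs in the 1899 neurons with *evx2* and 122 in the 3994 without. The ratio of its levels was 19.3 (95% counting interval 6.46 to 95.1). *gad1b* was at 17.5 and 16.7 CPM in cells with neither gene and at no more than 8.52 CPM in any other state. It could be tested only through the cells with neither gene, so the direction of its drop is no evidence. *gad2* was lower with *evx2* as well, whereas *slc6a1a* and *slc6a9* were not called and *gad1a* was not tested. Of the glutamatergic list, 2 of 5 genes could be tested. *slc17a6a*, a vesicular glutamate transporter, was at 126, 129, 172 and 159 CPM in library 1 and at 121, 131, 177 and 164 CPM in library 2. It was higher with *evx2* by 0.44 ± 0.09 (adjusted p = 0.00094), and its *evx1* effect was -0.01 ± 0.09 (adjusted p = 0.97). The values of cells with *evx2* lay above those of cells without in both libraries, while within excitatory-like cells alone the *evx2* effect was -0.18 (adjusted p = 0.86). *slc17a6b* was called for neither gene. Of cholinergic genes, *slc18a3a* was called lower with *evx2* and *chata* was not called.

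The *hmx* genes, which encode homeodomain factors of other spinal interneurons, parted the paralogues. *hmx2* was at 80.3, 70.8, 8.70 and 5.68 CPM in library 1 cells with neither gene, *evx1* alone, *evx2* alone and both. In library 2 it was at 115, 96.6, 14.6 and 5.15 CPM. Cells with *evx1* alone kept nearly the level of cells with neither, and those with *evx2* did not. The *evx2* effect was -3.29 ± 0.18 (adjusted p = 5.7e-14) and the *evx1* effect -0.28 ± 0.15 (adjusted p = 0.36), which differed by -3.01 ± 0.26 (adjusted p = 1.1e-08). *hmx3a* had effects of -2.18 ± 0.14 with *evx2* (adjusted p = 1.7e-12) and -0.50 ± 0.13 with *evx1* (adjusted p = 0.030), with a difference of -1.68 ± 0.21 (adjusted p = 7.9e-06). With class as a further term the difference was called for *hmx2* and not for *hmx3a*, both at an unadjusted p under 0.05. Within inhibitory-like cells it was called for both.

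Genes of other interneuron fates that could be tested were mostly lower with both paralogues. Of 20 listed genes 10 could be tested, and 8 of these were called lower with *evx2* and 7 with *evx1*. *gata2a*, *gata3*, *tal1* and *isl2b* exceeded 10 CPM only in cells with neither gene. They passed edgeR's filter on low counts through those cells, so the counts of calls are no evidence on the direction of the list. Within excitatory-like cells 0 of the listed genes could be tested, and within inhibitory-like cells or with class as a further term 2. For genes tested in none of these, the drops are known only over all neurons. Other-fate-like cells were 12.2% and 37.2% of neurons with neither gene and 3.03% and 4.38% of those with both. The part of this mix in the drops was not tested. *en1b*, an engrailed gene of V1 interneurons, had 4 UMIs in neurons with *evx2* and 366 in those without, a ratio of 43.5 (95% counting interval 16.8 to 161). With *evx1* its ratio was 2.15 (1.58 to 2.97), and the test of the difference between the fitted effects called it (-4.63 ± 0.57, adjusted p = 5.8e-06). *foxd3*, used here as a V1 marker, had 6 UMIs with *evx2* and 411 without. Both *en1b* and *foxd3* exceeded 10 CPM only in cells without *evx2*, through which they passed the filter. The direction of their *evx2* effects and of the difference from *evx1* is thus no evidence. *foxd3* did not follow *en1b* over the clusters. *foxd3* was highest in cluster 10, at 259 CPM, where *en1b* was at 0 CPM. It was at 210 CPM in cluster 6 and 98.1 CPM in cluster 9, with *en1b* at 489 and 90.1 CPM. *gata2a*, *gata3* and *tal1*, which mark V2b and Kolmer-Agduhr cells, had 1, 4 and 9 UMIs with *evx2* against 112, 172 and 150 without, and 5, 3 and 8 with *evx1* against 108, 173 and 151 without. *dmrt3a*, a dI6 gene, dropped by 2.16 ± 0.25 with *evx2* (adjusted p = 3.2e-07), and *pax2a*, found in V1 and other inhibitory neurons, by 1.01 ± 0.15 (adjusted p = 9.9e-06), although its *evx2* effect within inhibitory-like cells was 0.42 (adjusted p = 0.54). *isl2b* was called lower with each paralogue, and *foxp2* and *mnx2b* with neither. The fitted folds of genes with few UMIs depend on the prior count, and the UMIs are given for that reason.

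**Figure D4:**
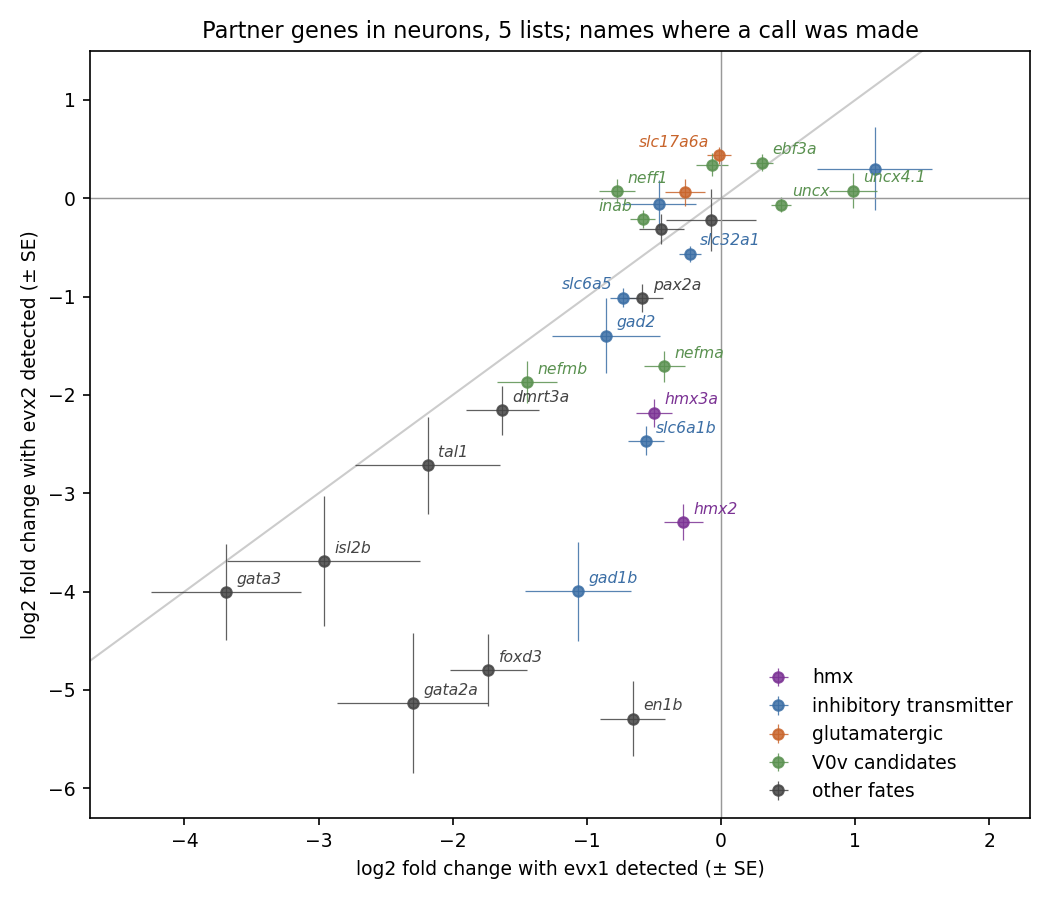
Log2 fold change (± SE) with *evx1* detected (x axis) against that with *evx2* detected (y axis) for the tested genes of 5 lists, with names where a call was made and the line of equal effects in grey. *hmx2* lies at -0.28 and -3.29, and most other-fate genes lie low on both axes. The far negative folds rest on few UMIs, and both axes share the cells with neither gene. Some low-count genes could be tested only because they were high in those cells, and *en1b* and *foxd3* only because they were high in cells without *evx2*.

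Candidate genes of V0v cells moved in both directions. Over the list, 1 of 8 tested genes was called higher and 2 lower with *evx2*, and 3 higher and 3 lower with *evx1*. With class as a further term *nefma* alone was called, with *evx2*. *uncx*, a homeodomain gene, was at 334, 425, 291 and 396 CPM in library 1 and at 270, 337, 246 and 397 CPM in library 2 in the order neither, *evx1* alone, *evx2* alone and both. It was higher with *evx1* by 0.45 ± 0.07 (adjusted p = 0.00024) and had an *evx2* effect of -0.06 ± 0.07 (adjusted p = 0.71), a difference of -0.51 ± 0.11 (adjusted p = 0.0097). Within inhibitory-like cells its *evx1* effect was -0.14 and the difference 0.39, and with class as a further term its *evx1* effect was 0.14 (adjusted p = 0.80), none of them called. Its paralogue *uncx4.1* was also called higher with *evx1*. *ebf3a*, an early B-cell factor gene, was higher with *evx2* by 0.36 ± 0.08 (adjusted p = 0.0043) and also with *evx1*, but its *evx2* effect was -0.01 with class as a further term (adjusted p = 0.99). *skor2*, a corepressor gene, was called for neither, at 0.34 ± 0.12 with *evx2* (adjusted p = 0.072). *skor1a* and *skor1b* had too few counts to be tested.

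The 4 filament genes of that list were each called lower with at least 1 paralogue over all neurons, and *nefma* alone with class as a further term. *nefma* and *nefmb*, of neurofilament medium, dropped by 1.71 ± 0.16 (adjusted p = 2.6e-09) and 1.87 ± 0.21 (adjusted p = 1.6e-07) with *evx2*, but within excitatory-like cells the *evx2* effect on *nefmb* was 0.21 (adjusted p = 0.96). *neff1*, of another type IV filament, dropped by 0.78 ± 0.13 with *evx1* (adjusted p = 0.00036) and had an *evx2* effect of 0.07 ± 0.12, with a difference of 0.85 ± 0.19 (adjusted p = 0.014). *inab*, an internexin gene, was called lower with *evx1*.

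**Figure D5:**
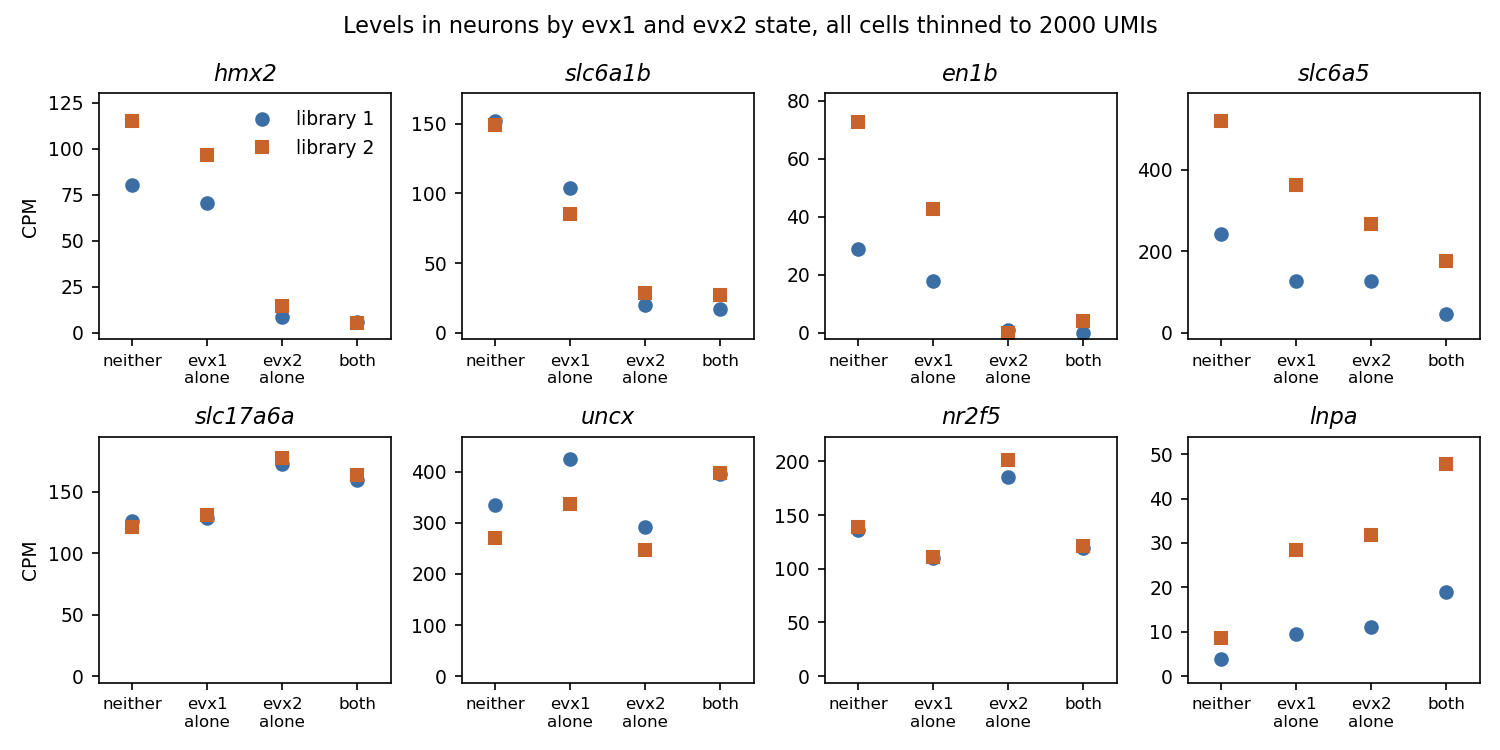
CPM of 8 genes in neurons with neither gene, *evx1* alone, *evx2* alone or both, summed over cells thinned to 2000 UMIs, with library 1 as circles and library 2 as squares. *hmx2* and *slc6a1b* drop with *evx2*, *slc6a5* drops with either gene, *slc17a6a* is higher with *evx2* and *uncx* with *evx1*.

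Transcription factor genes that the study named from these libraries were also read, and their direction here is no independent evidence. Of 18 factors it placed lower in mutant-like cells, 8 were called higher with *evx2* and 1 lower, and 2 were called higher with *evx1* and 5 lower. With *evx2*, edgeR called 0 of 18 within excitatory-like cells (3 at an unadjusted p under 0.05), 0 of 16 with class as a further term (6 unadjusted) and 5 of 10, all higher, within inhibitory-like cells. Among them *pou3f3b*, a POU factor, was higher with *evx2* by 0.62 ± 0.07 (adjusted p = 5.3e-08), and *mafba*, a large Maf factor, by 0.58 ± 0.08 (adjusted p = 8.7e-06). *nr5a2*, a nuclear receptor, was higher by 0.54 ± 0.09 (adjusted p = 0.00016).

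*nr2f5*, an orphan nuclear receptor, had opposite effects that were each called, of 0.38 ± 0.09 with *evx2* (adjusted p = 0.0063) and -0.49 ± 0.10 with *evx1* (adjusted p = 0.0031), with a difference of 0.87 ± 0.14 (adjusted p = 0.00043). *pbx1b*, a TALE homeodomain factor, differed by 0.75 ± 0.13 (adjusted p = 0.00078). Of 6 factors that the study placed higher in mutant-like cells, 5 were called lower with *evx2* and 2 with *evx1*. *bhlhe22*, a basic helix-loop-helix gene, dropped by 1.27 ± 0.14 with *evx2* (adjusted p = 8.4e-08). Of the genes the study placed higher in a V0v subset, whether wild-type or mutant, 3 of 5 tested were called lower with *evx2*. Of the other subset *esrrb*, an orphan nuclear receptor, was higher with *evx2* by 0.40 ± 0.07 (adjusted p = 9.3e-05).

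Of 11 genes of mature neurons, 5 were called lower with *evx1* and 2 with *evx2*, a difference in counts that was not tested. With class as a further term edgeR called 0 of 11 with either, and 3 with *evx1* and 4 with *evx2* had an unadjusted p under 0.05. With *evx1*, 0 of 11 were called within excitatory-like cells (4 unadjusted) and 0 of 11 within inhibitory-like cells (0 unadjusted). With *evx2*, *snap25a* and *gap43* were called lower within inhibitory-like cells. *gap43*, a growth cone gene, dropped by 0.37 ± 0.05 with *evx1* (adjusted p = 3.4e-05), at 1875, 1600, 1930 and 1492 CPM in library 1 and 1692, 1429, 1875 and 1174 CPM in library 2. *snap25a* and *sncb*, of synaptic terminals, were called lower with both paralogues. Of 8 tested genes of early neurons, 3 were called higher and 1 lower with *evx1*, and 2 higher and 1 lower with *evx2*. *hes6*, a gene of differentiating neurons, was higher with *evx1* by 0.58 ± 0.08 (adjusted p = 1.4e-05), and its *evx2* effect was 0.01 ± 0.08. Within excitatory-like and inhibitory-like cells alone its *evx1* effect was -0.22 and -0.06, not called. With class as a further term *hes6* was called lower with *evx2*.

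Of 10 tested genes of commissural guidance, *robo3*, the receptor that commissural axons need in vertebrates to cross the midline, was called higher with each paralogue, by 0.47 ± 0.08 with *evx2* (adjusted p = 5.5e-05) and by 0.84 ± 0.08 with *evx1* (adjusted p = 1.8e-08). Its levels were 176, 291, 232 and 413 CPM in library 1 and 216, 344, 264 and 571 CPM in library 2, highest where both were found, although its *evx2* effect was -0.04 with class as a further term (adjusted p = 0.92). Another 4 genes of the list were called lower with *evx2*. Stress genes moved as well: 6 of 13 were called lower with *evx2* and 1 with *evx1*, and *hsp70l* dropped by 0.37 ± 0.05 with *evx2* (adjusted p = 1.0e-05). Their part in the other differences was not tested.

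The 3 largest increases called with *evx2* were in *pax6a*, *sox9b* and *lnpa*. All 3 were under 10 CPM in cells with neither gene in both libraries. They passed edgeR's filter on low counts through cells with a paralogue, so the direction of these calls is no evidence. *sox9b* rested on few UMIs. In the order neither, *evx1* alone, *evx2* alone and both, it was at 4.74, 4.72, 11.1 and 13.3 CPM in library 1. In library 2 it was at 2.61, 1.42, 8.13 and 5.15 CPM. *pax6a*, a paired homeodomain gene, was higher by 1.74 ± 0.31 (adjusted p = 0.00021), at 4.45, 8.25, 5.54 and 11.4 CPM in library 1 and 4.57, 11.4, 23.6 and 63.1 CPM in library 2. Most of this difference came from library 2, with log2 values of 0.34 and 2.26 in the libraries. *sox6*, of the SoxD family, was higher by 1.24 ± 0.31 (adjusted p = 0.0092) and was among the leading genes of cluster 8, of unnamed neurons. Without *evx2* it exceeded 10 CPM only in library 2 cells with neither gene. The largest decreases with *evx2* over all neurons were in the neuropeptide genes *tac1*, *cort* and *penkb*, in *npy2r* and in other-fate genes already given. Of these, *cort* led cluster 10, and *penkb* and *tac1* were among the leading genes of cluster 6, both other-fate-like. The part of the class mix in these decreases was not tested. *tac1* and *cort* exceeded 10 CPM only in cells with neither gene, through which they passed edgeR's filter on low counts. *npy2r* exceeded 10 CPM only in library 2 cells without *evx2* and passed through those. The direction of these calls is no evidence. *penkb* had 13 UMIs with *evx2* and 552 without, and its difference between the *evx2* and *evx1* effects was -7.21 in library 1 and -0.75 in library 2. *tac1*, of tachykinins, had 1 UMI with *evx2* and 301 without, and 0 with *evx1* and 302 without, which is at least 32.2-fold lower with *evx1* when set against a floor of 3 UMIs over both libraries.

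With *evx1* the largest increases were in *olig4*, *XLOC_005357*, *pax6a* and *zgc:162707*. *XLOC_005357* was at 6.22 and 3.27 CPM in cells with neither gene and at 14.2 and 11.4 CPM with *evx1* alone. *XLOC_005357* and *pax6a* passed edgeR's filter on low counts through cells with a paralogue, so the direction of their calls is no evidence. *olig4*, a basic helix-loop-helix gene, was at 19.9, 42.5, 23.7 and 53.0 CPM in library 1 and higher with *evx1* by 1.35 ± 0.18 (adjusted p = 7.4e-06). *pax6a* was higher with *evx1* by 1.31 ± 0.31 (adjusted p = 0.011). *olig4* was among the leading genes of clusters 0 and 12, and *zgc:162707* among those of cluster 12, all of unnamed neurons. Unnamed neurons were 29.0% and 12.6% of neurons with neither gene and 61.7% and 73.5% of those with both. The part of this mix in the increases with either paralogue was not tested. The largest differences between the effects in favour of *evx2* included *gyg1a*, *bmp16* and *golga3*, and those in favour of *evx1* *en1b*, *penkb*, *sema3b*, *foxd3* and *hmx2*. Of these, *en1b*, *sema3b* and *foxd3* passed edgeR's filter on low counts only through cells without *evx2*, so their direction here is no evidence. Beyond the sum of both effects, the interaction term called 20 genes (0.227%), with *her15.1* at 1.21 ± 0.20 (adjusted p = 0.0016) and *skor2* at -0.82 ± 0.18 (adjusted p = 0.025) among them. *her15.1* led cluster 12 and was among the leading genes of cluster 0, and the part of the class mix in the interaction was not tested.

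The same effects were then read within classes, since the states differed in their make-up. In excitatory-like cells 0 of 5856 genes (0%) were called with *evx2*, 343 had an unadjusted p under 0.05, and 9 genes (0.154%) were called with *evx1*, with *calb2b*, a calretinin gene, at 0.52 ± 0.09 (adjusted p = 0.00085). In inhibitory-like cells 108 of 2677 genes (4.03%) were called with *evx2* and 3 (0.112%) with *evx1*, on 7 and 11 cells with both genes. *hmx2* fell by 1.69 ± 0.27 (adjusted p = 5.5e-06), *hmx3a* by 0.90 ± 0.21 (adjusted p = 0.0022) and *slc6a1b* by 1.29 ± 0.22 (adjusted p = 1.5e-05) with *evx2* there. *slc6a5* went the other way within this class, higher by 0.81 ± 0.14 (adjusted p = 4.2e-05), although it was lower with *evx2* over all neurons. These genes also differ between the clusters of the class. Cluster 5 had 887 CPM of *slc6a5*, 10.8 CPM of *slc6a1b* and 160 CPM of *hmx2*, and cluster 11 had 127, 1173 and 395 CPM. Cells with *evx2* alone numbered 44 and 44 in cluster 5 and 10 and 12 in cluster 11, against 260 and 246 and 208 and 142 with neither gene. The part of this mix in the effects within the class was not tested. *esrrb*, *nr2f5*, *pou3f2b* and *mafba* were also called higher. The 3 genes called with *evx1* included *bhlhe22*, at -1.58 ± 0.21 (adjusted p = 4.1e-08).

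With class as a further term, 99 of 4564 genes (2.17%) were called with *evx2* and 6 (0.131%) with *evx1*. *hmx2* (-1.65 ± 0.23, adjusted p = 4.2e-06), *hmx3a*, *slc6a1b*, *nefma*, *bhlhe22*, *pax2a* and *esrrb* were called with *evx2*, in the direction found over all neurons. *bcl11ba*, a zinc finger gene, was among those called with *evx1* (0.50 ± 0.11, adjusted p = 0.036). It led cluster 8, where *evx1* was at 299 and 391 CPM, against 129 and 137 CPM in cluster 1 of the same class. The class term leaves such differences between clusters of a class in the effects, and their part was not tested. Erythroid globin genes were among those called lower with *evx2* in this fit. The difference of the *evx2* effect between inhibitory-like and excitatory-like cells was called for 28 of 8561 genes (0.327%), with *esrrb* (0.98 ± 0.15, adjusted p = 0.00020), *nr2f5* (1.36 ± 0.24, adjusted p = 0.00063) and *pou3f2b* (1.13 ± 0.21, adjusted p = 0.0014) higher in inhibitory-like cells and *onecut1*, *gap43* and *hsp70l* lower. For *evx1* it was called for 6 of 7949 genes (0.0755%), *otpb* and *nrn1a* among them. These class-by-gene tests were added after the first values had been seen. Unlike the effects above, each took detection of its own paralogue without the other paralogue as a term.

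Patterns most like each paralogue were ranked over the neuron clusters, 12 in library 1 and 13 in library 2, among 8035 genes by the smaller correlation of the libraries. The clusters share libraries and differ in depth, so the correlations are descriptions. *cd9a*, a tetraspanin gene, came first for both, at 0.86 and 0.87 with *evx1* and 0.91 and 0.92 with *evx2*. For *evx1* it was followed by *fem1c*, *si:zfos-943e10.1* and *evx2* itself, whose correlation with *evx1* was 0.81 and 0.85. The genes nearest to *evx2* were *atp5mc3a*, *CR847968.1*, *ube2z* and *mafba*. The most opposite patterns were those of *islr2* for *evx1* (-0.87 and -0.86) and of *rbfox3b* for *evx2* (-0.89 and -0.88), with *hmx2* among the 10 most opposite to *evx2* (-0.81 and -0.82).

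Neighbours in the RefSeq annotation of assembly GRCz12tu were read for their expression in the same neurons. *evx1* lies between *hibadha* and *hoxa13a*, and *evx2* between *hoxd13a* and *lnpa*. *hoxa13a* had 3 and 3 UMIs and *hoxd13a* 32 and 23 UMIs in neurons, far below the paralogues. *lnpa*, of an endoplasmic reticulum protein, had 110 and 254 UMIs and was higher with both. It was at 3.85, 9.43, 11.1 and 18.9 CPM in library 1 and 8.49, 28.4, 31.7 and 47.7 CPM in library 2 in cells with neither gene, *evx1* alone, *evx2* alone and both. The effect was 1.36 ± 0.24 with *evx2* (adjusted p = 0.00022) and 1.03 ± 0.25 with *evx1* (adjusted p = 0.014). *lnpa* passed edgeR's filter on low counts through cells with a paralogue, so the direction of its calls is no evidence. *hoxd12a*, *hoxa11a*, *hibadha* and *tax1bp1a* were called for neither. Reads of neighbouring genes cannot be told apart where their transcripts overlap, and strand was not examined.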

How the data were processed

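The deposited values are raw UMI counts per gene and cell, made by the authors with Cell Ranger 4.0.0 (10x 3′ chemistry) on the Lawson Lab zebrafish annotation, and Partek is also named in the submitters' notes. The genome build is not given in the sources used here. Members, lists and tests were chosen with earlier results of these data known, and the thresholds that name clusters were set after marker values had been seen. Cells with at most 12000 UMIs, 500 to 2500 genes and at most 6% mitochondrial UMIs were kept. No doublet caller was run. The libraries share 3 barcodes (2 among kept cells). Leiden clusters (scanpy 1.11.5, igraph 0.11.9, 2000 features, 30 components, 15 neighbours, resolution 1.0) were computed for all cells and again for neurons, without listed genes.

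A first cluster was neuron-like with at least 4 of 6 neuron markers at 100 CPM. A neuron cluster was other-fate-like where 3 markers of a fate each had at least 20 CPM and exceeded the cluster median by a factor of 3, and otherwise excitatory-like or inhibitory-like where *slc17a6* or *slc6a5* and *slc6a1b* sums were 3 times apart and 3 markers of that kind had at least 10 CPM. Counts were summed per library and class, or per library and state after thinning to 2000 UMIs (seed 1), and fitted in edgeR 4.0.16 (R 4.3.3; TMM, filterByExpr, quasi-likelihood, library as a term, two-sided) with Benjamini-Hochberg adjustment. The test was checked on simulated counts. Poisson and binomial intervals are 95%, exact, and cover counting error only. DESeq2 1.42.0 was an alternative. Replicate numbers were given in accession order, each library holds all classes and states, and the library term is the block.

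Genes named are the members and *eve1*, all members of the V0v candidate, glutamatergic, inhibitory transmitter, *hmx* and other-fate lists, the 10 largest effects in each direction among called genes with 1 sign in both libraries, and up to 6 members of other lists. Clusters, the interaction and neighbours are named as they arise. *skor2* and *neff1* are listed under older symbols. EGFP is not among the listed genes. A gene that the naming rule selects is not reported here.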

Additional observations from a re-analysis of the deposited data

Results flagged for a closer look

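Cells over the upper limits of UMIs or genes were left out of every comparison above, and both genes were found there. In library 1 these cells held *evx1* at 43.0 CPM and *evx2* at 68.9 CPM, and in library 2 *evx1* at 52.1 CPM and *evx2* at 118 CPM. They held 18.8% of all *evx1* and 26.0% of all *evx2* UMIs of library 2. How many of them are multiplets was not tested.

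The log2 ratio of *evx2* to *evx1* UMIs took opposite signs in the transmitter classes as named, at 0.88 and 1.13 in excitatory-like cells and at -0.80 and -0.17 in inhibitory-like cells. In inhibitory-like cluster 5 alone it was -0.09 and 0.44. The opposite sign in library 2 depended on leaving cluster 12 out of the inhibitory-like class. The difference was not tested.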

How the results depend on the processing

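Signs held in each library alone for all 44 gene effects given as called. For genes named by the size of their effect this was a condition of naming and is no further evidence. Of the values that answer a comparison, 126 stayed on their side of the threshold, or within the allowed range, under an alternative, and 43 moved, 7 gained a call, 8 lost one and 9 changed sign. The *evx1* difference between excitatory-like and inhibitory-like cells was 0.72 at resolution 2.0, 0.78 with a per-cell gate and -0.27 with sums 2 times apart, where that of *evx2* was 0.99. Between excitatory-like and other-fate-like cells the *evx1* difference was 1.13 with DESeq2's Wald test, 1.22 with no replicate block, -0.036 with a mitochondrial limit of 10%, 1.26 without upper limits and -0.078 with *COX3* counted as mitochondrial. Between inhibitory-like and other-fate-like cells it was 0.88, 0.91, -0.29, 0.62 and -0.54 in the same order and 0.55 without cluster 10, and that of *evx2* was -0.36 with the limit of 10%, 1.43 without upper limits, 3.27 at resolution 0.5, 2.16 at resolution 2.0, 2.25 with 1000 features, 3.76 with listed genes kept, -1.21 with *COX3* counted and -0.30 without cluster 10.

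Leaving out a library gave, for *evx1*, 0.19 to 0.23 (excitatory-like against inhibitory-like), 0.99 to 1.27 (against other-fate-like), 0.80 to 1.04 (inhibitory-like against other-fate-like) and 3.12 to 3.32 (neurons against non-neuronal cells). For *evx2* it gave 1.52 to 1.86, 1.76 to 1.81, -0.10 to 0.29 and 3.03 to 3.59.

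Counts of genes called with *evx2*, with *evx1*, for their difference and for the interaction were 703, 312, 91 and 20. They were 249, 89, 26 and 0 with the Wald test (105 for the interaction at an unadjusted p under 0.05) and 123, 15, 4 and 0 with no replicate block (261 unadjusted). Thinning to 1000 UMIs gave 228, 65, 20 and 6. Excitatory-like cells alone gave 0 (343 unadjusted), 9, 2 and 0 (308 unadjusted), and inhibitory-like cells alone 108, 3, 86 and 2. Unthinned cells gave 1098 with *evx2*, 96 with *evx1* and 189 for the interaction. Class as a further term gave 99, 6 and 7 for the first 3. The limit of 10% gave 187 with *evx1*. *COX3* counted gave 141 with *evx1*, 50 for the difference and 36 for the interaction. Another seed gave 36 for the difference and 36 for the interaction, no upper limits 33 and 77, and thinning to 3000 UMIs 95 for the interaction. Co-detection over all neurons had a log2 odds ratio of 1.75 in unthinned cells and 0.73 to 1.46 in single libraries.

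Within excitatory-like cells the *evx2* effects changed sign for *slc17a6a* (-0.18), *slc6a5* (0.33), *slc32a1* (0.13), *nefmb* (0.21) and *hsp70l* (0.042), and the *evx1* effect for *hes6* (-0.22). Within inhibitory-like cells this held for *slc6a5* (0.81) and *pax2a* (0.42) with *evx2*, for *uncx* (-0.14), *hes6* (-0.057) and *hmx3a* (0.0017) with *evx1*, and for the difference in *uncx* (0.39). With class as a further term it held for *ebf3a* (-0.011) and *robo3* (-0.042) with *evx2*. The causes were not tested. *COX3* as mitochondrial, sums 2 times apart, leaving out cluster 10 and class as a further term were chosen after seeing the data. Of the 10 genes most like *evx1* and *evx2*, 7 and 10 were shared with a pseudocount of 1 CPM, and 4 and 6 at resolution 2.0. Most positive cells had few UMIs, so absence in a cell was not detectable at this depth.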
